A study of Rattus norvegicus with 12 samples.

Results

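The metallothioneins and the antioxidant response genes of diabetic rat wounds were examined in 10 genes of the 25620 in the read count table, found by their symbols in both deposited tables. They are the 4 metallothioneins Mt1, Mt2A, Mt3, and Mt4, and 6 genes commonly read as targets of the transcription factor Nrf2, namely Hmox1, Nqo1, Gclc, Gclm, Txnrd1, and Srxn1. The study asked how an adhesive made from the mucus of a snail (*A. fulica*) acts on chronic wounds. Wound tissue, labelled as skin, was taken from male Sprague-Dawley rats with diabetes induced by streptozotocin, a treatment that the control rats received as well, after a full-thickness circular wound had been made on the back. The wounds were left with saline (control) or covered with d-SMG, the freeze-dried snail mucus gel, with s-GAG, the sulfated glycosaminoglycan isolated from it (labelled GAG), or with Alg, a commercial alginate dressing, and were sampled on day 3, 7, and 14. Every group had 1 library on each day, 12 in all, and whether a library stands for 1 animal or a pool is not given in the sources used here. A difference between 2 libraries of the same day therefore has no replicate check and carries no p-value.

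Metallothioneins are small cysteine-rich proteins that bind zinc and copper, and the zinc sensor Mtf1 switches on Mt1 and Mt2A through metal response elements (MREs) in their promoters. Glucocorticoids, metals, and oxidants are all known to induce these genes. Nrf2 (encoded by Nfe2l2) is held back by Keap1 until oxidants or electrophiles modify Keap1, and it then acts through antioxidant response elements (AREs) on genes of glutathione synthesis, thioredoxin reduction, quinone reduction, and heme breakdown. In skin, Mt1 and Mt2A are inducible in many cell types, whereas Mt4 is known from stratified squamous epithelium and Mt3 from brain.

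The stretches before the starts of Mt1, Mt2A, and Mt4 are shown here because the levels of Mt1 and Mt2A ran together over the 12 libraries while Mt4 took another course. They are the 250 bases before the annotated start in RefSeq (build GRCr8), read 5′ to 3′ on the strand of the gene. Capitals mark matches, on either strand, to the MRE core (TGCACNC or TGCGCNC) or to the ARE core (TGACNNNGC), and no match to one core overlapped a match to the other in these 3 stretches.
Mt1, chr19:10832976-10833225, minus strand: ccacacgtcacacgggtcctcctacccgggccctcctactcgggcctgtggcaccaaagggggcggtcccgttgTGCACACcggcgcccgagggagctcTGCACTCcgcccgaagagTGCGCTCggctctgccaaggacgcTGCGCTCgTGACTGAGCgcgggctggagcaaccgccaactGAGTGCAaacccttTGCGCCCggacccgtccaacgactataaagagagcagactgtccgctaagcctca
Mt2A, chr19:10838709-10838958, minus strand: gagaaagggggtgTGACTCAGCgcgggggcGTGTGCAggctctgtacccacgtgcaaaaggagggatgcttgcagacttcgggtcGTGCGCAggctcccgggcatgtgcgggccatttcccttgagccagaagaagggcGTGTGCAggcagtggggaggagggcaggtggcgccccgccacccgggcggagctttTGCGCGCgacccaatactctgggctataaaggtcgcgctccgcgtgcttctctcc
Mt4, chr19:10871832-10872081, minus strand: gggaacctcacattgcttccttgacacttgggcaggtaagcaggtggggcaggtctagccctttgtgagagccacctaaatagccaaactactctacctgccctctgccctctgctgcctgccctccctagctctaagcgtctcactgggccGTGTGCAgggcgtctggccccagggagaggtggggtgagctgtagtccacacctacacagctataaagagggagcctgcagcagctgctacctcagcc

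Mt1 held 6 MRE matches and 1 ARE match, Mt2A 4 and 1, Mt3 3 and 0, and Mt4 1 and 0, respectively. For comparison, 20.6% of the 33465 promoters of the same length held at least 1 MRE match, 1.17% held 3 or more, and 10.1% held at least 1 ARE match. Among the antioxidant genes, Gclm held 2 MRE matches and 1 ARE match, and 1 of the 2 entries of Txnrd1 held 1 ARE match. The stretches of Nqo1, Gclc, and Srxn1 held neither core. A match is a run of letters and not a binding site, and no entry of Hmox1 was used. The 4 metallothioneins lie together on chromosome 19, as the chromosome column of the tables also gives.

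**Figure D1:**
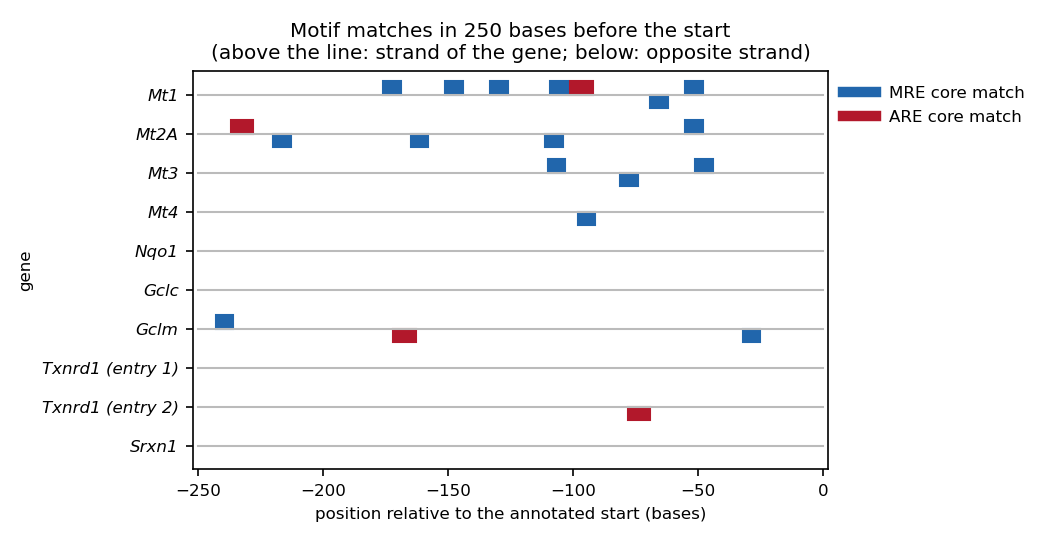
Matches to the MRE core (blue) and the ARE core (red) in the 250 bases before the annotated start, with the position in bases on the horizontal axis and 1 line per RefSeq entry. Mt1 carries 6 MRE matches and Mt2A 4, against 1 in Mt4 and 0 in Nqo1, Gclc, Txnrd1, and Srxn1.

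Levels between genes were compared in the deposited FPKM, which divides the fragments of a gene by its length. Mt1 had a lowest FPKM of 13.9 in control on day 14, a median of 102, and a highest of 222 in s-GAG on day 14. Mt2A lay below it in every library, from 4.83 to 125 FPKM, and the ratio of the FPKM of Mt1 to that of Mt2A ranged from 1.56 to 3.51. Mt4 spanned the widest range, from 0.14 FPKM in d-SMG on day 3 to 1132 in s-GAG on day 14, where it was the highest of the 10 genes. Mt3 was listed between 0 and 2.46 FPKM and was the lowest metallothionein in every library except d-SMG on day 3, where Mt4 was lower.

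Txnrd1, the cytosolic thioredoxin reductase, had the steadiest high level of the antioxidant genes, with a median of 27.4 FPKM and all libraries between 19.7 and 39.9 except s-GAG on day 14, at 6.65. Hmox1, the inducible enzyme that opens the heme ring, ranged from 1.91 to 107 FPKM around a median of 14.7. Gclc, the catalytic subunit of glutamate-cysteine ligase, had a median of 11.3 FPKM, and Gclm, its modifier subunit, a median of 2.52. The FPKM of Gclc exceeded that of Gclm in all 12 libraries, by between 1.39 times (s-GAG on day 14) and 10.9 times (Alg on day 14). Srxn1, sulfiredoxin, which repairs overoxidized peroxiredoxins, and Nqo1, a quinone reductase, had medians of 4.36 and 4.02 FPKM, respectively. The median levels of these last 2 genes did not differ beyond the spread over the libraries, which reached from 2.21 to 8.16 FPKM for Srxn1 and from 2.97 to 9.37 for Nqo1.

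**Figure D2:**
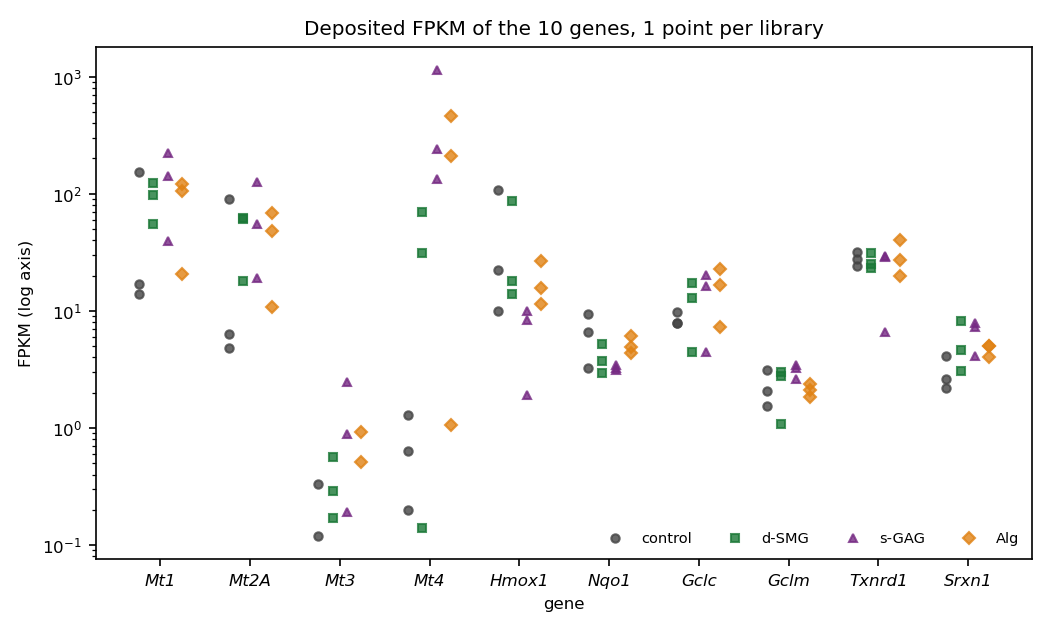
Deposited FPKM (log axis) of the 10 genes, 1 point per library, with the 4 treatments side by side within each gene. Mt4 reaches from 0.14 to 1132 FPKM, while Txnrd1 keeps to between 6.65 and 39.9, and the 2 libraries in which Mt3 is listed at 0 are not drawn.

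Within a gene, levels are given as CPM (reads scaled to a common library size) with the TMM factors of the 12 libraries applied. These libraries held from 13748887 to 38302461 reads on genes. Several were unlike the others in tissue content. The d-SMG library of day 3 held 71.5 CPM of 6 basal keratinocyte markers in sum, against 4141 to 32122 in the other libraries, and 244694 CPM of 14 skeletal muscle markers. The muscle sum was also high in Alg on day 7 (150615 CPM) and in s-GAG on day 14 (135873). It was 59537.5 to 86949 CPM in the controls and lowest in d-SMG on day 7 (5751). In the s-GAG library of day 14, 26.6% of the genes were at least 2-fold higher and 31.2% at least 2-fold lower than in control. In such bulk tissue, fewer cells of a type and less RNA per cell cannot be told apart.

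Mt1 had 64.8, 7.25, and 5.82 CPM in the control wounds of day 3, 7, and 14. In the d-SMG wounds it had 57.0, 19.8, and 46.3 CPM on the same days, and in the Alg wounds 48.7, 9.22, and 41.5. In the s-GAG wounds the order of the days was opposite, with 15.1, 58.6, and 118 CPM. On day 3 all 3 dressed libraries thus lay below control, as they did for 3 of 9 members (Mt1, Mt2A, and Nqo1) and for 23.9% of all genes tested. On day 7 and 14 all 3 lay above it, as for 6 of 9 members and 27.1% of genes on day 7 and 4 of 9 members and 28.9% of genes on day 14.

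On day 14, Mt1 was 7.95-fold higher than control in d-SMG (95% counting interval 6.55 to 9.72), 20.4-fold higher in s-GAG (16.9 to 24.7), and 7.14-fold higher in Alg (5.87 to 8.75). These intervals rest on 120 reads in the control library and leave out how much animals differ, as they reflect counting error alone. Under other scalings or in FPKM, the log2 ratio in s-GAG (4.35 here) ranged from 3.90 to 4.43. On day 7 the log2 ratio to control was 1.45 in d-SMG, 3.01 in s-GAG, and 0.35 in Alg, and the interval of the Alg ratio included no difference (−0.03 to 0.72). On day 3 the log2 ratio was −2.10 in s-GAG, −0.18 in d-SMG, and −0.41 in Alg.

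Mt2A, the other inducible metallothionein, took the same course. It had 37.9, 2.03, and 2.62 CPM in control on day 3, 7, and 14, from 892, 30, and 54 reads. In d-SMG it had 36.0, 6.36, and 22.6 CPM, in s-GAG 7.14, 22.5, and 65.5, and in Alg 27.0, 4.77, and 18.7. Its control level on day 7 and 14 was thus below that of every dressed library of the same day, as for Mt1.

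On day 14 the log2 ratio of Mt2A to control was 3.11 in d-SMG (2.69 to 3.55), 4.65 in s-GAG (4.25 to 5.07), and 2.83 in Alg (2.41 to 3.28). On day 3 it was −2.41 in s-GAG and −0.49 in Alg, and in d-SMG it was −0.08, with an interval (−0.25 to 0.09) that includes no difference. Mt1 and Mt2A were the 2 of 9 tested members for which all 3 dressed libraries lay below control on day 3 and above it on day 14, a pattern that 8.53% of the 15672 genes tested showed. Without the s-GAG libraries both genes kept this pattern, which 12.1% of the genes then showed. All 3 comparisons of a day share 1 control library, so that a single high or low control library moves them together.

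Mt1m, a further metallothionein gene that the tables list with its own row, held 4 to 140 reads, equal to between 3.33% and 10.6% of the reads of Mt1. Since the metallothioneins are short and alike, reads may have been divided between these copies or left out, and the counting tool is not given. The counts of Mt1 are uncertain for this reason, by an amount that the Mt1m share does not bound. The likeness of Mt1m to Mt1 given next carries the same uncertainty. Of all genes with a permanent symbol, Mt2A and Mt1m had the log2 CPM most like that of Mt1, with Pearson r values of 0.983 and 0.967 over 12 libraries that share 4 treatments and 3 days. Without the 2 libraries farthest from the median of Mt1 these values were 0.975 and 0.935. By Spearman rho, 1 of the first 3 genes by Pearson r remained among the first 3.

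The tissue content moved as well. The summed level of the 6 basal keratinocyte markers on day 14 was 5816 CPM in control, 17312 in d-SMG, 32122 in s-GAG, and 12815 in Alg, the same order as Mt1 in control, Alg, d-SMG, and s-GAG. On day 3 that order did not hold, as s-GAG had the highest keratinocyte sum (10217 CPM) and the lowest Mt1. The part of the keratinocyte content in the level of Mt1 was not tested.

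Mt4 had 2 reads in control and 1 in d-SMG on day 3, against 1610 in s-GAG and 1675 in Alg. On day 7 it had 4 reads in control, 229 in d-SMG, 2145 in s-GAG, and 7 in Alg. On day 14 it had 11, 414, 9172, and 2846 reads, in the same order. The libraries thus fell into 5 with at most 0.53 CPM, namely the 3 controls, d-SMG on day 3, and Alg on day 7, and 7 with at least 10.95 CPM.

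The log2 ratio of Mt4 to control was 10.07 in s-GAG (8.21 to 13.12) and 9.93 in Alg (8.07 to 12.97) on day 3, both against 2 control reads. On day 14 it was 5.60 in d-SMG (4.75 to 6.62), 10.13 in s-GAG (9.29 to 11.13), and 8.39 in Alg (7.55 to 9.40). On day 7 it was 5.34 in d-SMG and 7.66 in s-GAG, while the Alg ratio of 0.78 had an interval (−1.20 to 3.00) that includes no difference. No ratio is given for d-SMG on day 3, where both libraries held 3 reads or fewer.

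The summed level of 12 hair follicle markers moved with Mt4. It was 4.99 to 317 CPM in the 5 libraries in which Mt4 was low, with 2 of the 12 markers at 0 in d-SMG on day 3 and 1 in control on day 7. In the 7 libraries in which Mt4 was high, it was 830 to 8596 CPM. The gene most like Mt4 over the 12 libraries was Msx2, a homeobox gene of the hair matrix that is itself one of these markers, with a Pearson r of 0.99 and a Spearman rho of 0.986, followed by Vsig8 and Ly6g6d. Markers of the suprabasal and cornified epidermis did not follow it, as control on day 14 had their highest sum (6538 CPM) with 11 reads of Mt4. The part of the follicle content of the samples in the level of Mt4 was not tested.

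**Figure D3:**
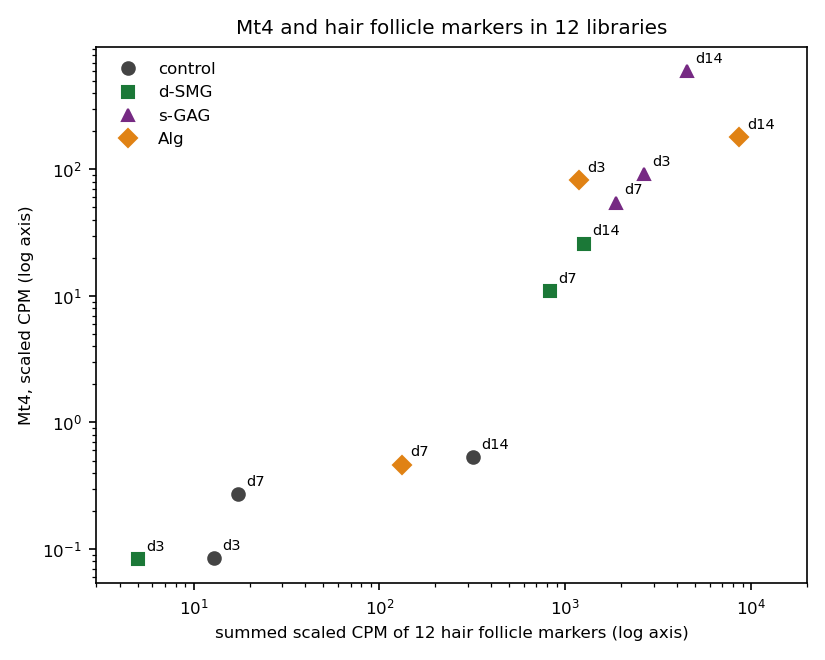
Mt4 (scaled CPM, log axis) against the summed scaled CPM of 12 hair follicle markers (log axis), 1 point per library, labelled with the day. The 5 libraries with Mt4 at or below 0.53 CPM have marker sums of at most 317 CPM, and the 7 libraries with Mt4 at or above 10.95 CPM have sums of at least 830.

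Mt3 had at most 7 reads in every library other than s-GAG on day 3, where it had 16. It had 0 reads in control on day 3 and in Alg on day 14, which allows up to 3 reads at these depths. The counting interval of 16 reads against 0 puts Mt3 at least 5.14-fold higher in s-GAG than in control on day 3. Only in this pair did Mt3 reach the minimum of 10 reads, through the s-GAG reads themselves, so this bound is no independent support for a difference. It failed the filter on low counts and entered no test over the 12 libraries.

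**Figure D4:**
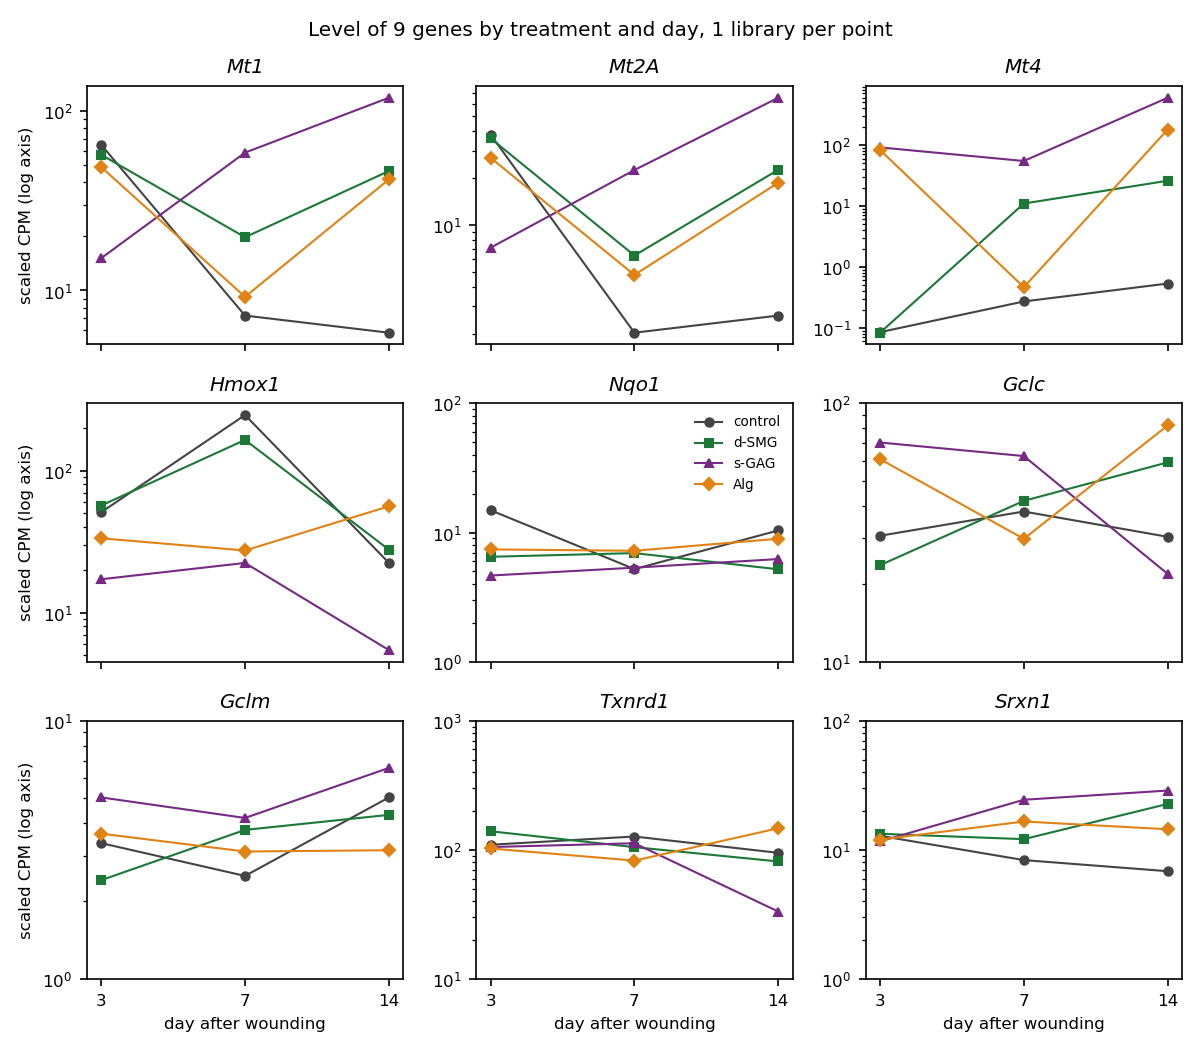
Scaled CPM (log axis) of 9 genes on day 3, 7, and 14, 1 library per point and 1 line per treatment. In control, Mt1 and Mt2A are lower on day 7 and 14 than on day 3 (5.82 and 2.62 CPM on day 14), Mt4 stays at or below 0.53 CPM in control, and Hmox1 stands highest in control and d-SMG on day 7 (246 and 164 CPM).

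Hmox1 had 50.9, 246, and 22.4 CPM in control on day 3, 7, and 14. The d-SMG wounds had 56.8, 164, and 27.8 CPM on these days, close to control in shape. The s-GAG wounds had 17.2, 22.4, and 5.45 CPM, and the Alg wounds 33.4, 27.4, and 56.0. The s-GAG wounds were thus also highest on day 7, at a far lower level than control, and the Alg wounds were highest on day 14.

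On day 7, Hmox1 was 10.99-fold lower than control in s-GAG and 8.98-fold lower in Alg, and its log2 ratio in d-SMG was −0.58 (−0.65 to −0.51). In s-GAG the log2 ratio was also −1.57 on day 3 and −2.04 on day 14. In Alg it was −0.61 on day 3 and 1.32 on day 14. Summed macrophage markers were 3088 CPM in control and 4551 in d-SMG on day 7, against 1324 in s-GAG and 929 in Alg, and their lowest sum (603 CPM) was in s-GAG on day 14, where Hmox1 was lowest as well. In control, however, the macrophage sum was higher on day 3 (4014 CPM) than on day 7, whereas Hmox1 was lower. The part of the macrophage content in the level of Hmox1 was not tested.

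Nqo1 had 14.9 CPM in control on day 3, against 6.49 in d-SMG, 4.65 in s-GAG, and 7.40 in Alg. On day 7 the 4 libraries lay between 5.22 CPM (control) and 7.23 (Alg), and on day 14 between 5.19 (d-SMG) and 10.4 (control). It was thus highest in control on day 3 and 14 and lowest there on day 7. All 3 dressed libraries lay on opposite sides of control on day 3 and 7 for 3 of 9 members, Mt1, Mt2A, and Nqo1 (13.7% of genes), and on day 7 and 14 for 1 of 9, Nqo1 (9.53%). On day 3 its log2 ratio to control was −1.20 in d-SMG (−1.57 to −0.84), −1.68 in s-GAG (−2.04 to −1.33), and −1.01 in Alg (−1.29 to −0.73). On day 7 it ranged from 0.04 to 0.47, and the interval in s-GAG (−0.35 to 0.43) includes no difference.

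Srxn1 lay within 11.6 to 13.3 CPM in all 4 libraries of day 3, and the 3 intervals of the ratio to control included no difference. In control it was 8.33 CPM on day 7 and 6.84 on day 14. The dressed libraries had more on both days, with 12.1 and 22.7 CPM in d-SMG, 24.4 and 28.8 in s-GAG, and 16.6 and 14.4 in Alg. On day 14 this was 3.31-fold higher in d-SMG (2.72 to 4.06), 4.21-fold higher in s-GAG (3.47 to 5.12), and 2.11-fold higher in Alg (1.70 to 2.62). Under other scalings or in FPKM, the log2 ratio in s-GAG on day 14 (2.07 here) ranged from 1.37 to 2.16. The deposited FPKM was higher in d-SMG (8.16) than in s-GAG (7.29) on that day, so the order of these 2 depends on the scaling. In CPM, the order of the 4 libraries on day 7 and on day 14 was that of the summed basal keratinocyte markers. On day 7 these sums were 4141 CPM in control, 7914 in d-SMG, 14375 in s-GAG, and 13998 in Alg. On day 3 they ran from 71.5 to 10217 CPM while Srxn1 hardly varied. The part of the keratinocyte content in the level of Srxn1 was not tested.

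Gclc and Gclm, whose products form 1 enzyme, did not run in parallel. Gclc had 30.7 CPM in control, 23.6 in d-SMG, 70.5 in s-GAG, and 60.8 in Alg on day 3. On day 14 it had 30.4, 59.1, 21.9, and 82.1 CPM in the same order, so that s-GAG passed from the highest to the lowest library. Gclm kept to 2.41 to 6.56 CPM over the 12 libraries, from 29 to 165 reads, and was never 2-fold away from control. On day 14 in Alg the log2 ratio of Gclc was 1.43 (1.29 to 1.57) and that of Gclm −0.68 (−1.19 to −0.18).

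Gclc was most like Kif11, a mitotic kinesin, and then like the zinc exporter Slc30a1 and the zinc importer Slc39a10, with Pearson r values of 0.955, 0.948, and 0.942 over the 12 libraries. Without the 2 libraries farthest from the median of Gclc these values were 0.943, 0.931, and 0.941. The choice depends on the measure, as 1 of these 3 genes was among the first 3 by Spearman rho and 0 were after centring within each day. Txnrd1 stayed between 81.3 and 147 CPM in 11 libraries, and in s-GAG on day 14 it had 33.3 CPM, a log2 ratio to control of −1.51 (−1.65 to −1.37). Without that library no ratio of Txnrd1 to control reached 2-fold.

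**Figure D5:**
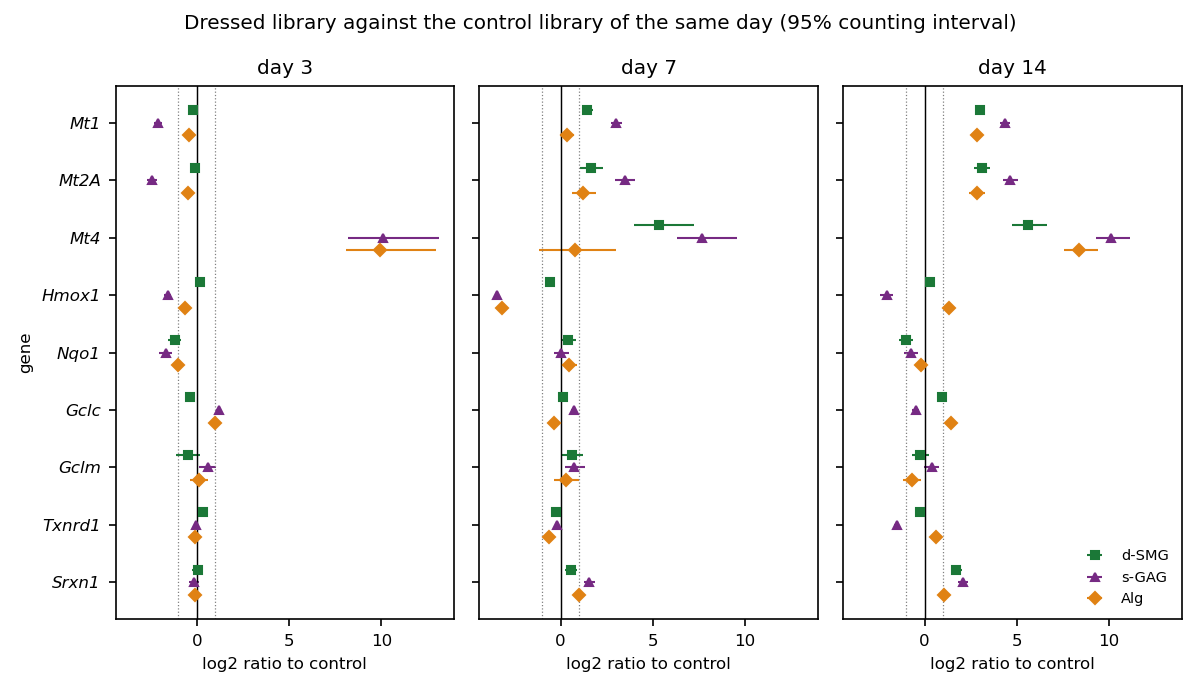
Log2 ratio of each dressed library to the control library of the same day for 9 genes, with 95% counting intervals as bars and dotted lines at a 2-fold difference. Mt1 and Mt2A lie at or left of 0 on day 3 and right of 2 on day 14, and Hmox1 in s-GAG and Alg lies left of −3 on day 7.

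Members at least 2-fold away from control were counted by direction against the share of all genes tested on the same day. In d-SMG, 0 of 8 members were higher on day 3 (9.88% of genes), 3 of 9 on day 7 (7.50%), and 4 of 9 on day 14 (12.7%). The 4 on day 14 were Mt1, Mt2A, Mt4, and Srxn1. In s-GAG, Mt4 and Gclc were higher on day 3 (14.2%), leaving aside Mt3, which passed the filter there through its s-GAG reads alone, and 4 of 9, namely Mt1, Mt2A, Mt4, and Srxn1, on both day 7 (12.9%) and day 14 (26.6%). In Alg, Mt4 alone was higher on day 3 (11.4%), Mt2A alone on day 7 (12.3%), and 6 of 9 on day 14 (9.51%), the latter being all tested members but Nqo1, Gclm, and Txnrd1. Mt4 held 2 and 4 reads in control on day 3 and 7, under the minimum of 10, so it entered there only with the reads of the dressed libraries.

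The members at least 2-fold lower in d-SMG were 1 of 8 on day 3, Nqo1 (14.0% of genes), and 0 of 9 on day 7 (5.74%) and day 14 (16.1%). In s-GAG they were Mt1, Mt2A, Hmox1, and Nqo1 on day 3 (11.6%), then Hmox1 alone on day 7 (12.5%), and Hmox1 and Txnrd1 on day 14 (31.2%). In Alg they were Nqo1 on day 3 (8.79%), Hmox1 on day 7 (12.1%), and 0 of 9 on day 14 (11.8%).

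A model of edgeR with treatment and day as terms (quasi-likelihood test) used all 12 libraries, so that the 3 days stand in for replicates of a treatment. No member passed an FDR of 0.05 in any of the 3 treatment comparisons or the 3 comparisons of days, and neither did any other gene (0% of 15672 in each). At an unadjusted p under 0.05 there were 204 genes for d-SMG, 1424 for s-GAG, and 461 for Alg, and 271, 754, and 460 for day 7 against 3, day 14 against 3, and day 14 against 7. DESeq2 called 8, 287, and 84 genes for d-SMG, s-GAG, and Alg, and 0, 41, and 7 for the same comparisons of days.

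Mt4 had the largest fitted change among the members, with a log2 fold change of 9.35 ± 2.10 (SE) in s-GAG, 8.11 ± 2.08 in Alg, and 5.31 ± 1.88 in d-SMG. The adjusted p-values of the edgeR quasi-likelihood test were 0.415, 0.9999, and 1 for these. With DESeq2, Mt4 was called in s-GAG (log2 fold change 9.33, adjusted p = 6.7e-06) and in Alg (8.21, adjusted p = 0.000596). It was also called by edgeR in s-GAG when only the libraries of s-GAG and control were fitted (adjusted p = 0.0371). Mt4 held 2, 4, and 11 reads in control, so it passed the low-count filter through dressed libraries in which it was high. These calls are therefore no independent support for a difference.

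Hmox1 had a fitted log2 fold change of −2.42 ± 0.74 (SE) in s-GAG, with an adjusted p of 0.459 by the edgeR quasi-likelihood test and of 0.034 by DESeq2. Srxn1 had 1.16 ± 0.44 in s-GAG, positive under all 21 alternatives tried, with an adjusted p of 0.516 by the edgeR quasi-likelihood test. Mt1 and Mt2A had 2.02 ± 1.02 and 2.25 ± 1.11 in s-GAG, fits that join a ratio below control on day 3 with ratios above it on day 7 and 14. The SE comes from the test statistic of the model over 12 libraries and is no spread of the s-GAG values over the days. With 1 library left out, Mt1 ranged in s-GAG from 1.23 without control on day 14 to 3.09 without control on day 3, and Mt2A from 1.41 to 3.51 without the same 2 libraries. Without day as a term they were 1.36 and 1.22. The range was 8.94 to 9.91 for Mt4, −2.88 to −1.64 for Hmox1, and 0.80 to 1.65 for Srxn1. In d-SMG, Mt4 ranged from 3.75 without the d-SMG library of day 7 to 6.42 without that of day 3, and it was 3.06 with limma on log2(FPKM + 1). Over the days, Hmox1 had −1.82 ± 0.67 on day 14 against day 7, and Mt2A −2.48 ± 0.93 on day 7 against day 3, with adjusted p-values of 0.907 and 0.999 by the edgeR quasi-likelihood test. Both fits join treatments that moved in opposite directions. Mt2A fell in control, d-SMG, and Alg but rose in s-GAG (7.14 to 22.5 CPM). Hmox1 fell in control, d-SMG, and s-GAG but rose in Alg (27.4 to 56.0 CPM).

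The other genes of these pathways were read from lists of regulators, glutathione, thioredoxin and peroxiredoxin, superoxide and peroxide removal, NADPH supply, heme and iron, zinc, and glucocorticoid response. Of the genes in these lists 0 passed the test in either direction in any of the 6 comparisons. The 9 Nrf2 regulators had fitted changes with a median of −0.03 (log2) in s-GAG, −0.02 in d-SMG, and 0.04 in Alg, against medians of 0.00, −0.03, and −0.03 over all genes tested. Nfe2l2 itself, the Nrf2 gene, had between 74.0 and 132 CPM in the 12 libraries. Mtf1 had between 17.4 and 26.3 CPM in 11 libraries and 7.60 in s-GAG on day 14, the library with the highest Mt1. In that library 31.2% of all genes were at least 2-fold lower than control. These are RNA levels, and the activity of Nrf2 and Mtf1 was not measured.

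Of 20 glutathione genes, 14 had a positive fitted change in s-GAG (median 0.42 on the log2 scale, against 0.00 over all genes). On day 14 in s-GAG, 10 of the 20 were at least 2-fold higher than control (26.6% of genes) and 1 was lower (31.2%), with Gstp1, a glutathione transferase, highest at a log2 ratio of 3.01. In d-SMG on the same day 7 of the 20 were at least 2-fold higher (12.7%), led by Slc7a11, the cystine importer, at 2.21, and 2 were lower (16.1%). On day 3 in d-SMG, 0 of the 20 were at least 2-fold higher (9.88%) and 7 were lower (14.0%), down to a log2 ratio of −3.94 for the glutathione transferase Gsta4. In Alg on day 14, 4 were higher (9.51%) and 1 was lower (11.8%). Of 12 thioredoxin and peroxiredoxin genes, 6 were at least 2-fold higher in s-GAG on day 14 (26.6% of genes), with Txn1, thioredoxin, at 2.52, in the library in which Txnrd1 was lowest, and 2 were lower (31.2%), with Txnip, the thioredoxin inhibitor, at −2.01. Of 9 glucocorticoid-responsive genes, 0 were at least 2-fold higher on day 14 in any dressing (12.7%, 26.6%, and 9.51% of genes in d-SMG, s-GAG, and Alg). At least 2-fold lower on that day were 3, 5, and 5 in the same order (16.1%, 31.2%, and 11.8% of genes). On day 7 in s-GAG, by contrast, 6 of the 9 were at least 2-fold higher (12.9% of genes) and 0 lower (12.5%). On day 3 in d-SMG 3 were higher (9.88%) and 0 lower (14.0%). That d-SMG library had the lowest basal keratinocyte and the highest skeletal muscle marker sums (71.5 and 244694 CPM). The part of this tissue content in its glutathione and glucocorticoid counts was not tested.

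The zinc list held 18 genes with enough reads on day 3, of which 3 were at least 2-fold higher than control in s-GAG (14.2% of genes) and 3 in Alg (11.4%). These counts are near the shares over all genes. At least 2-fold lower were 1 in s-GAG (11.6%), Slc30a2 at a log2 ratio of −4.14, and 0 in Alg (8.79%). Slc39a10, a zinc importer, was the highest in both, with log2 ratios of 3.11 and 2.65. Gclc was also highest in these 2 libraries of that day, and a link between the 2 genes was not tested. Of the 6 NADPH genes, 3 were at least 2-fold higher in d-SMG on day 14 (12.7%) and 3 in s-GAG (26.6%), with Idh1, an isocitrate dehydrogenase, at 1.05 in d-SMG and Taldo1, transaldolase, at 1.92 in s-GAG. Sod2, the mitochondrial superoxide dismutase, had the lowest log2 ratio of the 4 genes of superoxide and peroxide removal on day 7 in all 3 dressings, at −0.92 in d-SMG, −1.97 in s-GAG, and −1.72 in Alg. Of 17 genes of heme and iron, 5 were at least 2-fold lower in s-GAG (12.5%) and 4 in Alg (12.1%) on day 7, the libraries in which Hmox1 was far below control. The lowest of them were Hpx, hemopexin, at −2.22 in s-GAG, and Cd163, the hemoglobin scavenger receptor of macrophages, at −2.28 in Alg. The Hpx ratio rests on 8 reads in s-GAG against 14 in control, and Hpx failed the filter on low counts over the 12 libraries.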

How the data were processed

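Stranded, rRNA-depleted libraries of rat wound tissue were sequenced, and the submitters' processing notes name bcl2fastq, FastQC, TopHat2, and edgeR; the counting tool and the genome build are not given in the sources used here. The authors deposited whole-number read counts of 25620 genes and the FPKM of 25524 genes. In each file a single column of values (number of such columns per file, 1) matches no described sample and was not used. Depth ranged from 13748887 to 38302461 reads on genes. Counts were scaled by TMM and tested over 12 libraries with edgeR 4.0.16 in R 4.3.3 (filterByExpr, glmQLFit and glmQLFTest, Benjamini-Hochberg adjustment, FDR 0.05), and the script was tested on simulated data. Pairs of libraries of 1 day were compared at a minimum of 10 reads in both together, with exact Clopper-Pearson intervals at 95%. A library with 0 reads was set to 3 reads, and one with 1 to 3 reads kept its count. The members are always named, and with each member that passed the filter the 3 genes with the highest Pearson r of log2 CPM (prior count 2) without provisional symbols. Of 195 list and marker entries 194 were found, 2 of them through a synonym, and 9 of the 10 members had a RefSeq promoter entry. The members and lists were chosen with earlier results of these data known. DESeq2 1.42.0, limma 3.58.1 on log2 FPKM (pseudocount 1 or 0.1), other scalings and filters, and leaving out each library were alternatives, and the side-of-control pattern under other scalings and without s-GAG was added after seeing the data. Python 3.11.15 with matplotlib 3.10.9 made the plots.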

Additional observations from a re-analysis of the deposited data

Results flagged for a closer look

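For 3 of 9 tested members all dressed libraries lay on one side of the control library on 1 day and on the other side on another day. This is near the share over all genes, 29.1% of the 15672 tested. Between day 3 and 7 the side changed for all 3 (13.7% of genes), between day 3 and 14 for Mt1 and Mt2A (17.0%), and between day 7 and 14 for Nqo1 (9.53%). The mean log2 ratio of Mt1 to control over the 3 dressings was −0.90 on day 3, 1.60 on day 7, and 3.39 on day 14, so that it was 2.50 higher on day 7 and 4.29 higher on day 14 than on day 3. For Mt2A the means were −0.99, 2.12, and 3.53, a difference from day 3 of 3.11 on day 7 and 4.52 on day 14. For Nqo1 the mean was −1.29 on day 3, 0.31 on day 7, and −0.65 on day 14, which gives a difference of 1.60 between day 7 and 3 and of −0.95 between day 14 and 7. These differences were not tested, since each day has 1 library per treatment and the 3 ratios of a day share 1 control library. Some sides rest on ratios with an interval that includes no difference. These were Mt2A in d-SMG on day 3 (−0.25 to 0.09) and Mt1 in Alg on day 7 (−0.03 to 0.72). The others were Nqo1 in s-GAG on day 7 (−0.35 to 0.43) and in Alg on day 14 (−0.53 to 0.10).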

How the results depend on the processing

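Counts of genes called for d-SMG, s-GAG, and Alg and for day 14 against 3 and against 7 were 8, 287, 84, 41, and 7 with DESeq2 in place of 0, with 2 members called in s-GAG (Mt4, Hmox1) and 1 in Alg (Mt4). With only the libraries compared, 8 genes were called in s-GAG and 2 in Alg. Of the 8, 1 was a member, Mt4, which passed the low-count filter through its s-GAG reads. Without the low-count filter 1 gene was called in s-GAG. With 1 library left out, 0 to 57 genes were called in s-GAG, 57 without d-SMG on day 3, and 0 members. Members at least 2-fold away from control numbered 1 of 8, 7 of 10, and 2 of 9 for d-SMG, s-GAG, and Alg on day 3, the 7 including Mt3. Over all genes, 9.88%, 14.2%, and 11.4% were at least 2-fold higher in the same order, and 14.0%, 11.6%, and 8.79% lower. The exact test of edgeR with an assumed BCV of 0.3 compares single libraries and is no replicate test. It called 0, 4, and 1 of these members (6.48%, 4.32%, and 2.58% of genes). The 4 again included Mt3, and also Mt4, and the 1 in Alg was Mt4. On day 7 it called 1 for d-SMG (Mt4) and 1 for Alg (Hmox1) in place of 3 and 2 (1.78% and 2.14%). At 2-fold the shares of genes higher and lower were 7.50% and 5.74% in d-SMG and 12.3% and 12.1% in Alg. On day 14 it called 3 for Alg in place of 6 (5.14%, against 9.51% higher and 11.8% lower at 2-fold). Mt4 held 2 and 4 reads in control on day 3 and 7 and met the minimum of 10 through dressed libraries in which it was high. Its calls on those days are therefore no independent support for a difference. For Alg on day 3 the members at least 2-fold away from control numbered 1 with RLE or with FPKM + 1. The count of members below control on day 3 and above it on day 14 stayed 2 under the 3 added settings.

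Fitted log2 fold changes near 0 changed sign. In d-SMG, Gclm was 0.059 with the library size. Over the leave-one-out fits, Hmox1 ranged from −0.61 to 0.65, Gclc from −0.13 to 0.68, Gclm from −0.26 to 0.21, and Txnrd1 from −0.19 to 0.0084. In Alg, Txnrd1 was −0.0026 with no replicate block (without day as a term) and −0.021 with only the libraries compared. With 1 library left out, Mt1 ranged from −0.17 to 1.96, Mt2A from −0.028 to 2.32, Hmox1 from −1.75 to 0.23, Nqo1 from −0.68 to 0.087, Gclm from −0.26 to 0.16, and Txnrd1 from −0.53 to 0.37. The lowest Mt1 and Mt2A were those without control on day 14, and the highest those without control on day 3.

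For day 7 against 3, Mt4 was 0.35 with DESeq2. Gclc was 0.0099 with RLE, 0.010 with DESeq2, 0.039 with the library size, 0.00029 with at least 50 reads in 3 libraries, and 0.065 and 0.087 with limma on FPKM + 1 and FPKM + 0.1. With the library size and both limma fits, Gclm was 0.00016, 0.0063, and 0.031 and Txnrd1 0.046, 0.0038, and 0.0030. With 1 library left out, Mt4 ranged from −1.47 to 1.25, Nqo1 from −0.46 to 0.013, Gclc from −0.29 to 0.34, Gclm from −0.25 to 0.081, Txnrd1 from −0.33 to 0.12, and Srxn1 from −0.11 to 0.54. For day 14 against 3, Mt1 was 0.25 and Mt2A 0.085 with no replicate block, and Nqo1 was 0.0033 and 0.014 with limma on FPKM + 1 and FPKM + 0.1. With 1 library left out, Mt1 ranged from −1.22 to 0.25, Mt2A from −1.61 to 0.051, Nqo1 from −0.18 to 0.28, and Gclc from −0.19 to 0.56. For day 14 against 7, Gclc was −0.0037 and −0.022 with these limma fits. With 1 library left out, Nqo1 ranged from −0.013 to 0.42, Gclc from −0.21 to 0.54, and Txnrd1 from −0.74 to 0.0028. The cause of these changes was not tested. The fit without the block changed no call of a member. No value could be had for Mt4 in d-SMG and Alg with only the libraries compared, nor for Mt3 in s-GAG on day 3 and Mt4 in Alg on day 7 at a minimum of 50 reads. With 1 library per treatment and day, no value separates a treatment from the animal and the piece of tissue taken.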
